A study of Mus musculus with 12 samples.

Results

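The genes of the proteasome were followed in mouse lung, with the 3 inducible subunits of the immunoproteasome told apart from their constitutive counterparts. Members were the entries whose symbol begins with Psma to Psmg and a digit and that reached at least 1 CPM (read counts that the authors scaled to library size) in at least 3 of 12 libraries. The name pattern matched 54 of 49585 entries, and 48 passed the level rule, among 16126 genes tested. They were 7 alpha, 4 structural beta and 3 constitutive catalytic beta subunits of the 20S core, the 3 inducible catalytic subunits Psmb8, Psmb9 and Psmb10, 6 ATPase and 11 non-ATPase subunits of the 19S cap, 4 activator genes, 1 inhibitor, 7 assembly factors, the copy Psme2b, and Psmc3ip, which carries the name but acts in meiotic recombination and is no subunit. The other 6 matches stayed under the level rule and are described last.

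Lungs of Balb/cJ mice lacking Rgs4 (KO), a gene for a regulator of G protein signalling, and of wild-type mice (WT) were compared after exposure to Aspergillus fumigatus (Af), a mould, or to phosphate-buffered saline (PBS). The groups were KO_Af (libraries 12 to 14), KO_PBS (9 to 11), WT_Af (18 to 20) and WT_PBS (15 to 17), with 3 poly-A RNA libraries each. The labels used here do not say how the knockout was made, the age and sex of the mice, how Af was given, or whether each library came from a separate animal. The p-values therefore describe the spread among these libraries, which may be technical.

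The proteasome degrades proteins that carry ubiquitin chains. Its 20S core is a barrel of alpha and beta rings, and the beta subunits Psmb5, Psmb6 and Psmb7 carry the cutting sites. The 19S cap binds ubiquitin chains, removes them, and unfolds the substrate with a ring of ATPases. In immune cells, and in many other cells under interferon gamma, Psmb8, Psmb9 and Psmb10 replace Psmb5, Psmb6 and Psmb7 in newly built cores, and the activator formed by Psme1 and Psme2 can take the place of a cap. This immunoproteasome is known for making peptides that suit class I major histocompatibility molecules.

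The libraries held 20708884 to 30229446 reads, recovered from the deposited values. Rgs4 was 1.15 ± 0.311 CPM in KO_Af and 45.1 ± 3.27 CPM in WT_Af, and 0.892 ± 0.282 CPM in KO_PBS and 22.9 ± 2.63 CPM in WT_PBS (SD, n = 3 each), so the labels held for the targeted gene. The 8 lung markers were above 0 in every library. Genotype coincides with library number, KO having the lower numbers, and within each genotype the PBS libraries have lower numbers than the Af libraries, so that any effect of library order cannot be told apart from the groups. Library KO_Af 12 stood apart: against the mean of KO_Af 13 and 14, with genes cut by transcript length into 4 equal classes, the median gene of the shortest class was higher by log2 0.33 and that of the longest class differed by log2 -0.33. Library WT_Af 18 held thymus genes at levels seen in no other library.

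The members lie on 16 chromosomes, with 10 of 48 on chromosome 11. Psmb9 (chromosome 17, 34181987 to 34187764, minus strand, GRCm38) and Psmb8 (chromosome 17, 34197721 to 34201454, plus strand) flank Tap1, a subunit of the peptide transporter, in the class II region of the major histocompatibility complex. Psmb9 and Tap1 overlap by 212 bases on opposite strands, and in all 13 of 48 members overlap another coding gene. No source used here says if counting was stranded, so reads in such overlaps are uncertain, as are those of Psme2 and its near-identical copy Psme2b. Promoter windows of 300 bases, from 250 before to 50 after the RefSeq start (GRCm38.p6), were on hand for 41 of 48 members. The windows of the 3 inducible catalytic subunits, of the constitutive ones with an entry (Psmb5 and Psmb6) and of Psme1 are shown, since the results below turn on how these genes differ. They are printed 5′ to 3′ on the gene's strand, and capitals mark matches to the motifs described after them.
Psmb8, chr17:34197945-34198244, plus strand: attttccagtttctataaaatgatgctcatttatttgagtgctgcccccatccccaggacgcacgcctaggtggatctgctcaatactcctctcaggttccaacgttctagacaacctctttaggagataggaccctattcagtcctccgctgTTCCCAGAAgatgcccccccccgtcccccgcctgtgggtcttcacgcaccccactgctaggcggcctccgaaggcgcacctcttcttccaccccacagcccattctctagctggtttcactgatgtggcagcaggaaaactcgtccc
Psmb9, chr17:34187281-34187580, minus strand: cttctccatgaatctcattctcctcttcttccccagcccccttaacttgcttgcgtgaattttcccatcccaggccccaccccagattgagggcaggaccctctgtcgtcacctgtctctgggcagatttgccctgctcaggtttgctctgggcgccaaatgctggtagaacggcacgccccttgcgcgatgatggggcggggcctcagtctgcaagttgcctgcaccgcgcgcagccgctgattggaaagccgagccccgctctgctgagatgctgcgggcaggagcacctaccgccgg
Psmb10, chr8:105938343-105938642, minus strand: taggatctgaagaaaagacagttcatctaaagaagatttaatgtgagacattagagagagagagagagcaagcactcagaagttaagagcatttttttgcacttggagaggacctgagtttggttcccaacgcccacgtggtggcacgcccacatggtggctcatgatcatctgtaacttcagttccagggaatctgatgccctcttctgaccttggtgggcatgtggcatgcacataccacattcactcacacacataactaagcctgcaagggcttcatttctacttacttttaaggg
Psmb5, chr14:54617946-54618245, minus strand: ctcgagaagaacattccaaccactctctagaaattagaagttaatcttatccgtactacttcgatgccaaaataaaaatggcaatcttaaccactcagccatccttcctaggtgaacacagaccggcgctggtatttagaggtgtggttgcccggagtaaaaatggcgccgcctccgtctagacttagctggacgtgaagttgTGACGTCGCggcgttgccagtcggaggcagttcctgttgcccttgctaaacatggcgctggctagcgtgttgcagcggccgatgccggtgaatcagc
Psmb6, chr11:70525107-70525406, plus strand: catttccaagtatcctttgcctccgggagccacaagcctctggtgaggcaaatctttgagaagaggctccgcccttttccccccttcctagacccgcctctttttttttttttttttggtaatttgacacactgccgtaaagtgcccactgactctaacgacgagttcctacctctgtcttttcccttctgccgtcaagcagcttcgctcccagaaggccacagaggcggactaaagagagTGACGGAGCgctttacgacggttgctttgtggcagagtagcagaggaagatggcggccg
Psme1, chr14:55578244-55578543, plus strand: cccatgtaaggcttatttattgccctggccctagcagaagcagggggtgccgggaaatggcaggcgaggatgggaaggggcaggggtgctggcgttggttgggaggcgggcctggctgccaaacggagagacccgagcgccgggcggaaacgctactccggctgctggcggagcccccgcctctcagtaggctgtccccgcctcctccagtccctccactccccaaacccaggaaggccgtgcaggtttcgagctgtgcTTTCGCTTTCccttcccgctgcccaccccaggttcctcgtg

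The motifs were searched on both strands of each window. GAAA, any 2 bases and GAAA again, the core of the interferon-stimulated response element, was found in 5 of 41 members (12.2%) and in 3.99% of 27025 genes, among the members in Psmb3, Psmd4, Psmd9, Psme1 and Psmg4. In Psme1 it lies on the minus strand and reads TTTCGCTTTC on the strand shown, from base 10 after the RefSeq start. TTCNNNGAA, the gamma-activated site, reads the same on both strands and was found in Psmb8, Psmd2 and Psmg1, or 7.32% of members against 9.55% of genes. In Psmb8 it reads TTCCCAGAA and begins 97 bases before the RefSeq start. TGACNNNGC, the core of the antioxidant response element that NRF1 and NRF2 bind, was found in 6 of 41 members (14.6%), namely Psmb5, Psmb6, Psmc6, Psmd12, Psmd9 and Psme4, and in 14.0% of genes. No printed window held matches that overlap. The windows of Psmb8, Psmb9 and Psme1 lie wholly inside these genes as GENCODE M21 places them. The matches in Psmb8 and Psme1 therefore lie downstream of the GENCODE gene starts, and the region before those starts was not searched. A match is a description of letters, and its absence, as in the windows of Psmb9 and Psmb10, says only that these letters are not in this window.

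Levels were compared between genes as CPM per kb of the longest principal transcript. In WT_PBS lungs the 14 constitutive 20S genes ranged from 23.0 CPM per kb (Psma2) to 100.4 CPM per kb (Psmb6), a 4.36-fold spread around a median of 57.3 CPM per kb. The inducible subunits stood at 35.6 ± 2.94 (Psmb10), 31.8 ± 2.55 (Psmb8) and 20.0 ± 3.57 CPM per kb (Psmb9; SD, n = 3). Differences between these genes were not tested. Among the constitutive catalytic subunits Psmb6 was followed by Psmb7 at 53.1 CPM per kb and Psmb5 at 28.7 CPM per kb. The 17 genes of the 19S cap ranged from 25.9 (Psmd14) to 64.7 CPM per kb (Psmc3). Psmc3ip (2.54 CPM per kb) and the assembly factors, from 8.16 to 10.9 CPM per kb, were low, while Psme1 stood at 98.3 CPM per kb. The order depends on the transcript taken: with the median length of all coding transcripts, Psmb9 stood at 51.0, Psmb8 at 61.6 and Psmb10 at 35.6 CPM per kb in WT_PBS, and the spread of the constitutive 20S genes was 3.19-fold. The cap genes then spread 10.2-fold, up to Psmd2 at 263 CPM per kb, against 2.50-fold with the principal transcript.

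After Af nearly every proteasome gene was higher in both genotypes. In KO lungs 45 of 48 members rose and 0 fell (limma, adjusted p under 0.05), where 57.9% of all tested genes were called, 28.7% higher and 29.2% lower. In WT lungs 44 of 48 rose and 0 fell, where 51.8% of all tested genes were called, 26.2% higher and 25.6% lower. At an unadjusted p under 0.05 no member was lower in either comparison, by limma or by the count tests edgeR and DESeq2. Limma had 10105 of all 16126 tested genes under that p in KO and 9395 in WT, in either direction. The median log2 change of the members was 0.67 in KO and 0.56 in WT, beside a median of -0.02 over all tested genes in each. In KO 45 members, and in WT 46, were higher in every Af library than in every PBS library, beside 31.1% of all genes in KO and 32.7% in WT. Psmf1 alone was lower in every KO_Af library than in every KO_PBS library, beside 31.7% of all genes. The changes were modest: from log2 -0.10 to 1.19 in KO and from 0.03 to 1.0 in WT.

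**Figure D1:**
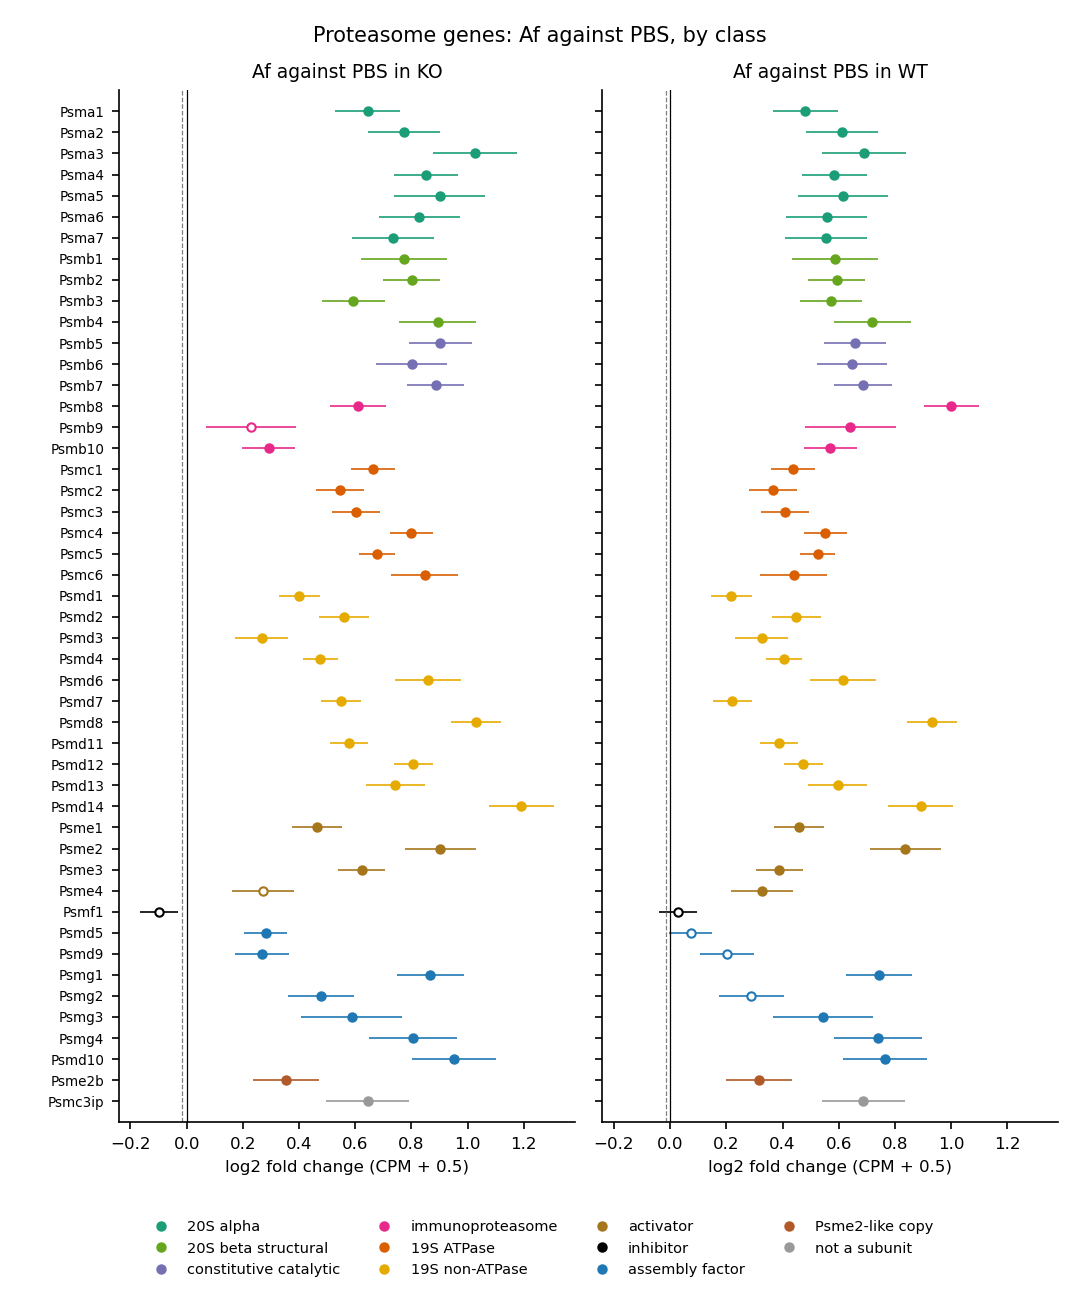
Log2 fold change of CPM + 0.5 (x axis, points with standard errors) of the 48 proteasome genes (rows, coloured by class), Af against PBS in KO (left) and in WT (right); filled points passed the limma test, and the dashed line is the median of all tested genes. Nearly all points lie right of 0, with Psmd14 (1.19 in KO, 0.89 in WT) and Psmd8 (1.03 in KO, 0.93 in WT) far to the right, while Psmf1 lies near 0 in both panels.

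The structural genes of the core moved as a block. All 14 constitutive 20S genes rose in each genotype, by a median of log2 0.81 in KO and 0.60 in WT, and the range was narrow, from 0.59 to 1.03 in KO and from 0.48 to 0.72 in WT. Psma3, an alpha ring subunit, had the highest change of its class. It measured 212, 127 and 144 CPM in KO_Af, against 73.1, 75.4 and 82.1 CPM in KO_PBS, a 2.04-fold rise (log2 1.03 ± 0.15 SE, limma adjusted p = 0.000137). In WT_Af it measured 114, 121 and 130.0 CPM, against 78.1, 75.1 and 72.3 CPM in WT_PBS (log2 0.69 ± 0.15, limma adjusted p = 0.00252). Every Af library lay above every PBS library, and KO_Af 12 lay well above the other KO_Af libraries. Psma1 had the lowest change of the alpha subunits (log2 0.64 in KO and 0.48 in WT). Of the structural beta subunits, Psmb4 changed most (log2 0.89 in KO and 0.72 in WT) and Psmb3 least (0.59 in KO and 0.57 in WT). Without KO_Af 12 all 14 genes still rose in KO, by a median of log2 0.64.

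The constitutive catalytic subunits followed the rest of the core. Psmb5, which carries the chymotrypsin-like site, measured 62.6, 48.8 and 46.7 CPM in KO_Af, against 26.0, 28.1 and 29.1 CPM in KO_PBS (log2 0.90 ± 0.11 SE, limma adjusted p = 4.24e-05). In WT it measured 40.9, 41.5 and 40.4 CPM under Af and 28.6, 23.6 and 25.2 CPM under PBS (log2 0.66 ± 0.11, limma adjusted p = 0.000526). Af and PBS libraries did not overlap in either genotype. Psmb6, of the caspase-like site, measured 191, 123 and 146 CPM in KO_Af and 84.6, 86.5 and 88.1 CPM in KO_PBS, with 131, 127 and 119 CPM in WT_Af and 80.8, 78.5 and 81.0 CPM in WT_PBS. Its log2 change was 0.80 ± 0.12 in KO and 0.65 ± 0.12 in WT. Psmb7, of the trypsin-like site, rose by log2 0.89 ± 0.10 in KO and 0.69 ± 0.10 in WT, again without overlap between Af and PBS libraries.

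The inducible catalytic subunits differed among themselves. Psmb8, the counterpart of Psmb5, measured 121, 112 and 102 CPM in KO_Af, against 67.4, 73.1 and 78.02 CPM in KO_PBS (log2 0.61 ± 0.10 SE, limma adjusted p = 0.000287). It measured 115, 99.7 and 97.5 CPM in WT_Af, against 48.5, 50.4 and 56.4 CPM in WT_PBS, a 2.0-fold rise (log2 1.0 ± 0.10, limma adjusted p = 1.17e-05). That was the highest change of all 48 members in WT, and the groups did not overlap in either genotype. Psmb9, the counterpart of Psmb6, measured 56.7, 48.2 and 38.9 CPM in KO_Af and 40.3, 39.2 and 41.6 CPM in KO_PBS. One KO_Af library lay below all KO_PBS libraries, and the change was not called (log2 0.23 ± 0.16, limma adjusted p = 0.241). In WT Psmb9 measured 49.997, 37.7 and 39.1 CPM under Af and 21.5, 30.6 and 28.8 CPM under PBS, and it rose by log2 0.64 ± 0.16 (limma adjusted p = 0.006). Psmb10, the counterpart of Psmb7, measured 81.9, 81.2 and 68.7 CPM in KO_Af and 60.8, 59.5 and 68.5 CPM in KO_PBS (log2 0.29 ± 0.09, limma adjusted p = 0.0192). In WT it measured 70.1, 66.3 and 72.0 CPM under Af and 42.8, 46.8 and 50.5 CPM under PBS (log2 0.57 ± 0.09, limma adjusted p = 0.000429). The 2 groups were close but did not overlap in KO, and they were wide apart in WT. In KO the call for Psmb10 was lost without KO_Af 13 (limma adjusted p = 0.0576), KO_PBS 9 (0.0654) or KO_PBS 10 (0.0742), where the log2 change was 0.25 to 0.27.

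**Figure D2:**
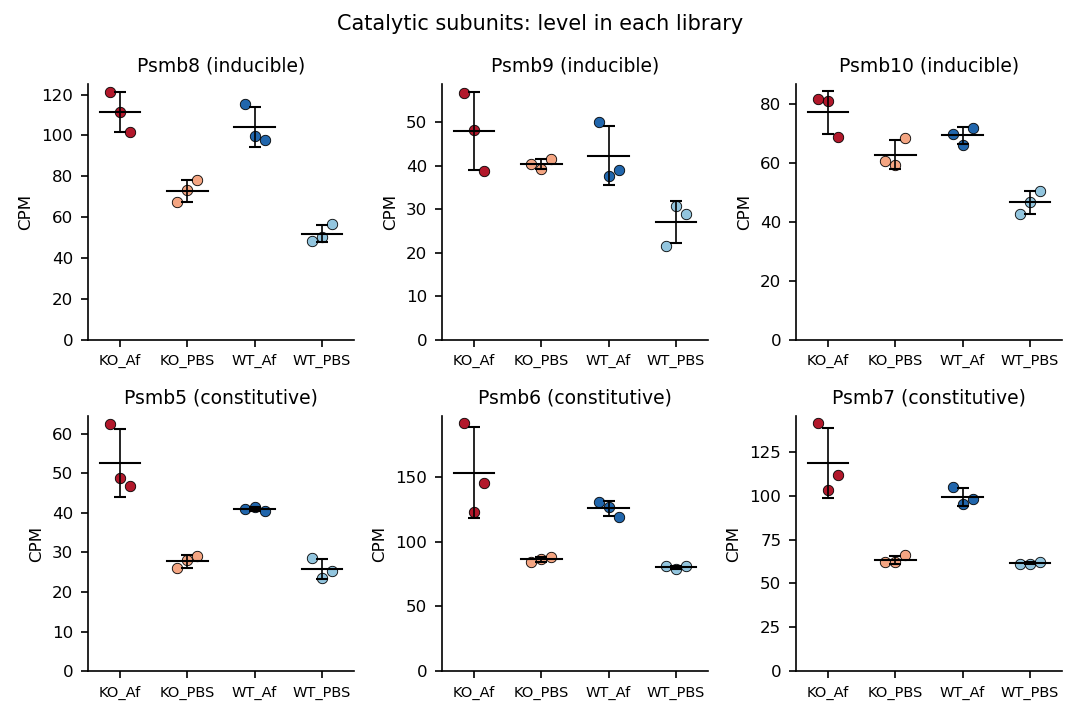
CPM (y axis, from 0) of the inducible catalytic subunits (top) and their constitutive counterparts (bottom) in each library of KO_Af, KO_PBS, WT_Af and WT_PBS (x axis), with the group mean as a line and the SD as a bar. For the inducible genes all KO_PBS points lie above all WT_PBS points, as for Psmb8 with 67.4 to 78.02 CPM against 48.5 to 56.4 CPM. Those of Psmb6 also lie apart, by less (84.6 to 88.1 against 78.5 to 81.0 CPM), while those of Psmb5 and Psmb7 overlap.

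In the 19S cap all 17 genes rose in each genotype, by a median of log2 0.66 in KO and 0.44 in WT. The 6 ATPases, which unfold the substrate, spanned log2 0.55 (Psmc2) to 0.85 (Psmc6) in KO and 0.37 (Psmc2) to 0.55 (Psmc4) in WT. Among the 11 non-ATPase subunits the range was wider. Psmd14, the deubiquitinase that removes the chain from a bound substrate, measured 113, 79.5 and 87.9 CPM in KO_Af, against 37.5, 39.1 and 44.3 CPM in KO_PBS. This was the highest change of all members in KO, 2.28-fold (log2 1.19 ± 0.12 SE, limma adjusted p = 7.76e-06). In WT it measured 75.7, 76.0 and 71.6 CPM under Af, against 42.2, 38.0 and 39.6 CPM under PBS (log2 0.89 ± 0.12, limma adjusted p = 8.72e-05). Psmd8, like Psmd14 a subunit of the lid, measured 207, 161 and 175 CPM in KO_Af and 88.2, 85.8 and 90.2 CPM in KO_PBS, with 166, 155 and 151 CPM in WT_Af and 85.2, 80.2 and 80.8 CPM in WT_PBS. For both genes the Af and PBS libraries were far apart. Psmd3 changed least in KO (log2 0.27 ± 0.09, limma adjusted p = 0.0305) and Psmd1, a large scaffold subunit of the base, least in WT (log2 0.22 ± 0.07, limma adjusted p = 0.0275). The Psmd3 call in KO held in 17 of 25 settings and was lost without KO_Af 13, KO_Af 14 (log2 0.18, limma adjusted p = 0.122) or any 1 of the KO_PBS libraries, and the Psmd1 call in WT held in 20 of 25 and was lost without WT_Af 19, WT_Af 20, WT_PBS 16 or WT_PBS 17 (adjusted p up to 0.10004).

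Of the activators, Psme2 rose more than its partner Psme1 in each genotype, though the difference between them was not tested. Psme2 measured 167, 110.4 and 120.3 CPM in KO_Af, against 65.96, 67.3 and 75.7 CPM in KO_PBS (log2 0.90 ± 0.13 SE, limma adjusted p = 0.000102), and 105, 109 and 104 CPM in WT_Af, against 58.4, 59.7 and 59.8 CPM in WT_PBS (log2 0.84 ± 0.13, limma adjusted p = 0.000233). Psme1 measured 206, 159 and 179 CPM in KO_Af and 123, 130.2 and 138 CPM in KO_PBS, with 151, 149 and 151 CPM in WT_Af and 111, 108 and 109.9 CPM in WT_PBS. Its log2 change was 0.46 ± 0.09 in each genotype, and groups did not overlap for either gene. Psme3, a nuclear activator that forms rings of its own, rose by log2 0.62 ± 0.08 in KO and 0.39 ± 0.08 in WT. Psme4, which encodes PA200, a large single-chain activator, measured 86.2, 115 and 118 CPM in KO_Af and 87.3, 90.6 and 83.6 CPM in KO_PBS. Library KO_Af 12 lay within the PBS range, and the change missed the threshold (log2 0.27 ± 0.11, limma adjusted p = 0.0521). It was called without KO_Af 12 (log2 0.42, limma adjusted p = 0.000522), with array weights (log2 0.40), by edgeR (adjusted p = 0.0341) and by DESeq2 (adjusted p = 0.021). In WT Psme4 rose by log2 0.33 ± 0.11 (limma adjusted p = 0.0269), a call that held in 21 of 25 settings. It was lost without WT_Af 19 (limma adjusted p = 0.0683), WT_Af 20 (0.0782) or WT_PBS 17 (0.101), and when libraries were rescaled (0.0584). Psmf1, an inhibitor of the core, measured 36.7, 37.5 and 35.2 CPM in KO_Af and 38.7, 39.5 and 39.1 CPM in KO_PBS, and 36.7, 35.5 and 34.3 CPM in WT_Af and 36.5, 34.9 and 33.2 CPM in WT_PBS. It was not called in KO (log2 -0.10 ± 0.07, limma adjusted p = 0.228) or in WT (log2 0.03 ± 0.07, limma adjusted p = 0.755), and its sign in WT was negative when libraries were rescaled to 1 median (log2 -0.03).

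Assembly factors, which build the core and the cap and leave them again, varied in their change. All 7 rose in KO, with a median of log2 0.59, and 4 of 7 rose in WT. Psmd10, or gankyrin, a chaperone of the base, changed most (log2 0.95 ± 0.15 SE in KO and 0.76 ± 0.15 in WT), with 37.5, 25.5 and 23.2 CPM in KO_Af against 13.6, 15.0 and 14.2 CPM in KO_PBS, and 26.2, 23.5 and 23.6 CPM in WT_Af against 15.6, 13.6 and 13.3 CPM in WT_PBS. Psmg1, Psmg3 and Psmg4, of the chaperones of the core, rose by log2 0.87, 0.59 and 0.81 in KO and by 0.74, 0.54 and 0.74 in WT. The other base chaperones changed little: Psmd9 by log2 0.27 in KO (limma adjusted p = 0.0299), with 0.20 in WT (adjusted p = 0.0945), and Psmd5 by 0.28 in KO (adjusted p = 0.00842), with 0.07 in WT (adjusted p = 0.448). The Psmd9 call in KO held in 16 of 25 settings and was lost without KO_Af 12 (log2 0.18, limma adjusted p = 0.0795), KO_Af 14 (0.063), KO_PBS 9 (0.115) or KO_PBS 10 (0.0572), while in WT it was called without KO_Af 12 (adjusted p = 0.0323). Psmg2 rose by log2 0.48 in KO and missed the threshold in WT (log2 0.29, limma adjusted p = 0.0554). Outside these classes Psme2b rose by log2 0.35 in KO and 0.32 in WT, calls that held in 19 of 25 settings in KO and 15 of 25 in WT, and Psmc3ip rose by 0.64 in KO and 0.69 in WT.

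Other measures moved with Af beside these genes. The 10 leukocyte markers summed to 2395 to 2792 CPM in KO_Af and 1768 to 1927 CPM in KO_PBS, and to 2348 to 2788 CPM in WT_Af and 1209 to 1448 CPM in WT_PBS, with 9 of 10 higher in KO, 10 of 10 in WT and no marker at 0 in any library. The 5 proliferation markers summed to 271 to 386 CPM in KO_Af and 53.6 to 73.9 CPM in KO_PBS, and to 335 to 409 CPM in WT_Af and 51.4 to 64.5 CPM in WT_PBS, and all 5 were higher in each genotype. Macrophage markers summed to 863 to 1696 CPM in KO_Af and 428 to 459 CPM in KO_PBS, and to 1009 to 1448 CPM in WT_Af and 415 to 502 CPM in WT_PBS, with 4 of 6 higher and 1 of 6 lower in each genotype. Eosinophil markers summed to 65.04 to 104 CPM in KO_Af and 10.9 to 25.5 CPM in KO_PBS, and to 41.1 to 109.97 CPM in WT_Af and 7.45 to 11.5 CPM in WT_PBS, with 3 of 4 higher in each. Neutrophil markers summed to 358 to 634 CPM in KO_Af and 193 to 331 CPM in KO_PBS, and to 298 to 373 CPM in WT_Af and 88.5 to 132 CPM in WT_PBS, with 2 of 5 higher in KO and 4 of 5 in WT. Not every set rose in both genotypes. Of 6 T cell markers, 0 were called in KO (median log2 -0.03) and 6 were higher in WT (median 1.31). Their sums in WT_Af spread from 73.8 to 203 CPM, the highest being that of WT_Af 18, which held thymus genes. Each of the 6 was highest in that library, as for Cd3e with 36.2 CPM, against 13.2 and 10.5 CPM in WT_Af 19 and 20. The part of WT_Af 18 in the WT change of these markers was not tested. Of 5 natural killer cell markers, 0 were higher and 1 lower in KO, and 2 were higher in WT. Of 4 B cell markers, 0 were called in KO (median log2 -0.16) and 1 was higher in WT (median 0.85). Of 4 plasma cell markers, 2 were higher in KO and 3 in WT. The summed lung markers were 16170 to 31258 CPM in KO_Af and 31154 to 33769 CPM in KO_PBS, and 19635 to 23456 CPM in WT_Af and 28812 to 34575 CPM in WT_PBS. In bulk tissue, a change in the number of cells of a type and a change in RNA per cell cannot be told apart. The part of these in the proteasome changes was not tested. Divided by the summed leukocyte markers, Psmb9 was 1.62 to 2.26 per 100 CPM of markers in KO_Af and 2.03 to 2.35 in KO_PBS, and 1.59 to 1.79 in WT_Af and 1.66 to 2.38 in WT_PBS, so that the ranges overlapped in each genotype. The same quotient of Psmb8 was 4.0 to 4.83 in KO_Af and 3.79 to 4.40 in KO_PBS, and 3.98 to 4.25 in WT_Af and 3.48 to 4.67 in WT_PBS, which also overlapped. For Psmb10 it was 2.87 to 3.27 in KO_Af and 3.09 to 3.87 in KO_PBS, and 2.51 to 2.94 in WT_Af and 3.23 to 4.18 in WT_PBS, lower under Af in WT without overlap.

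Proteasome transcripts are short, and short transcripts were higher under Af in general. Of the 48 members 35 lay in the shortest of 4 equal length classes of the 14540 tested genes with a known length (up to 1911 bases). In that class the median change of all genes was log2 0.29 in KO and 0.25 in WT, and that of the 35 members was 0.77 in KO and 0.58 in WT. The 9 members of the next class had medians of 0.62 in KO and 0.44 in WT, beside 0.07 over all genes of that class in each genotype. Library KO_Af 12 added to this in KO: 42 of 48 members were higher there than in the mean of KO_Af 13 and 14, by a median of log2 0.35. The constitutive 20S genes were all higher, by a median of log2 0.52, and the 19S genes in 13 of 17 cases, by a median of 0.19. Without this library the median change of the members in KO was log2 0.61, with 44 of 48 called. The part of transcript length in the changes was not tested.

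**Figure D3:**
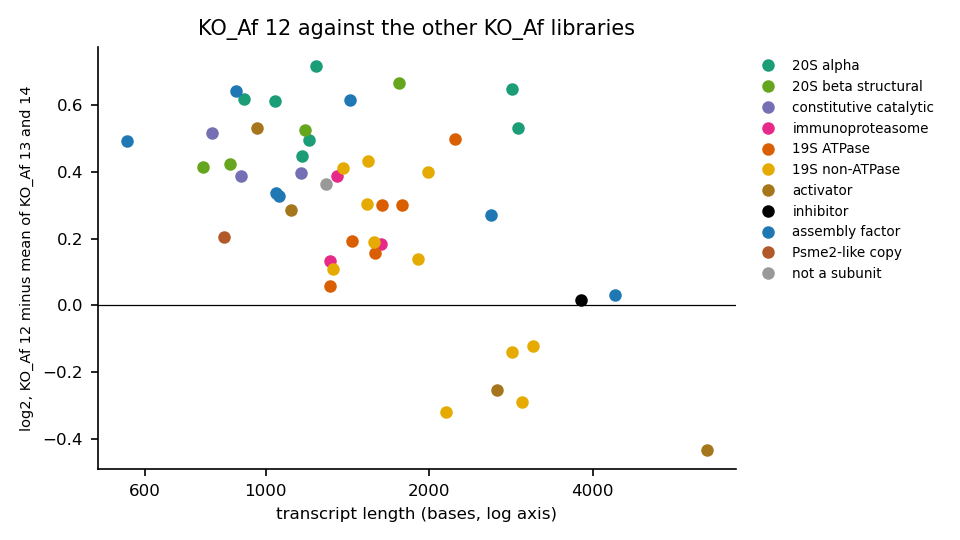
Difference of log2(CPM + 0.5) between library KO_Af 12 and the mean of KO_Af 13 and 14 (y axis) against transcript length in bases (x axis, log scale) for the 48 proteasome genes, coloured by class. All members shorter than the median length of 1408.5 bases lie above 0, and the longest, Psme4, lies lowest at -0.43.

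The exchange of catalytic subunits was read as the ratio of CPM of each inducible subunit to its counterpart in every library. The log2 differences and their tests used CPM + 0.5. Psmb10 to Psmb7 was 0.578, 0.787 and 0.615 in KO_Af, against 0.98, 0.955 and 1.03 in KO_PBS, and 0.668, 0.697 and 0.734 in WT_Af, against 0.700, 0.764 and 0.810 in WT_PBS. The groups were apart in KO and overlapped in WT. Over both genotypes the ratio was lower under Af by log2 0.35, with differences of -0.59 in KO and -0.12 in WT (exact permutation within genotype, two-sided p = 0.01, adjusted over 3 ratios p = 0.03, smallest p possible 0.005). Psmb9 to Psmb6 was 0.296, 0.391 and 0.267 in KO_Af, against 0.477, 0.453 and 0.472 in KO_PBS, and 0.383, 0.297 and 0.327 in WT_Af, against 0.266, 0.390 and 0.356 in WT_PBS. Its difference missed the threshold (log2 -0.29, exact permutation p = 0.1, adjusted p = 0.15). Psmb8 to Psmb5 was 1.94, 2.29 and 2.17 in KO_Af, against 2.59, 2.60 and 2.68 in KO_PBS, and 2.82, 2.40 and 2.41 in WT_Af, against 1.69, 2.13 and 2.24 in WT_PBS. The 2 genotypes went opposite ways without overlap, by log2 -0.29 in KO and 0.34 in WT, and over both the difference was log2 0.02 (exact permutation p = 0.855). Between genotypes, with exposure held, no ratio was called: the KO minus WT difference was log2 0.07 for Psmb8 to Psmb5 (exact permutation p = 0.64), 0.20 for Psmb9 to Psmb6 (p = 0.23) and 0.14 for Psmb10 to Psmb7 (p = 0.215). These averages join opposite signs: the KO minus WT differences were log2 -0.25, -0.09 and -0.10 under Af and 0.39, 0.48 and 0.38 under PBS, in the same order of ratios. Under PBS every KO_PBS ratio lay above every WT_PBS ratio in all 3 pairs, and neither exposure was tested alone.

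**Figure D4:**
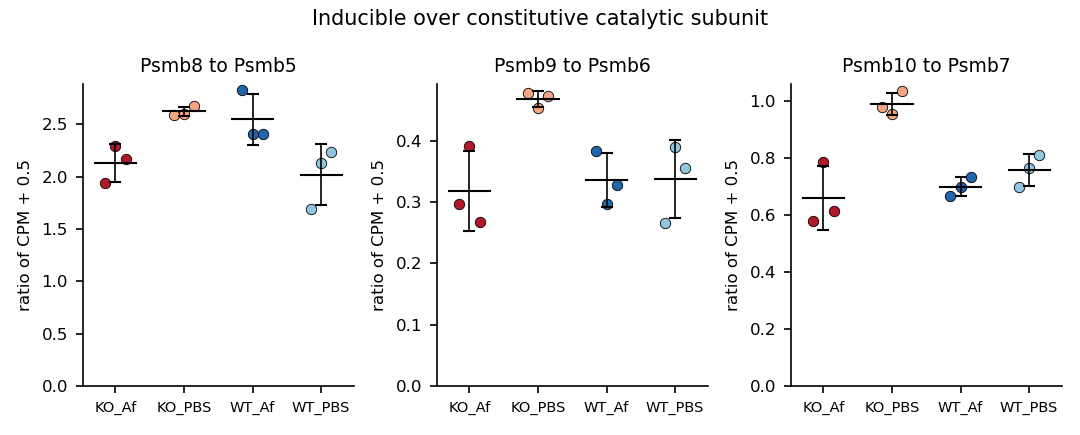
Ratio of CPM of each inducible catalytic subunit to its constitutive counterpart (y axis, from 0; drawn without the 0.5 that the axis label names) in each library of KO_Af, KO_PBS, WT_Af and WT_PBS (x axis), with group means as lines and SD as bars. KO_PBS points are tight, as for Psmb10 to Psmb7 at 0.955 to 1.03, and lie above the KO_Af points in all 3 panels.

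Between genotypes few members were called under PBS. In KO_PBS lungs 2 of 48 members rose relative to WT_PBS and 0 fell, where 3.55% of all tested genes were called, 1.90% higher and 1.66% lower. The share of members called, 4.17%, is near that of all genes. Both called members were of the immunoproteasome. Psmb8 averaged 72.8 ± 5.33 CPM in KO_PBS and 51.8 ± 4.15 CPM in WT_PBS (SD, n = 3 each; 1.40-fold, log2 0.49 ± 0.10 SE, limma adjusted p = 0.0212). Psmb10 averaged 62.9 ± 4.86 CPM in KO_PBS and 46.7 ± 3.85 CPM in WT_PBS (1.34-fold, log2 0.43 ± 0.09, limma adjusted p = 0.0319). Psmb9 averaged 40.4 ± 1.21 CPM in KO_PBS and 27.0 ± 4.82 CPM in WT_PBS, with the highest fold of the 3 but a p that missed the threshold (1.5-fold, log2 0.59 ± 0.16, limma adjusted p = 0.0714). All KO_PBS libraries lay above all WT_PBS libraries for each of the 3, as they did for 6 of the 14 constitutive 20S genes. DESeq2 on recovered reads called all 3, and edgeR called 2. Of all 16126 tested genes DESeq2 called 1216 and edgeR 566, against 573 by limma. Psmb9 was also called by limma without KO_Af 12 (adjusted p = 0.0352). The calls rest on few libraries: neither gene was called without KO_PBS 10, KO_PBS 11, WT_PBS 15 or WT_PBS 16, where the log2 difference stayed between 0.44 and 0.48 for Psmb8 and between 0.37 and 0.47 for Psmb10, and Psmb10 was also lost without KO_PBS 9 or WT_Af 19.

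No other member was called under PBS by limma, edgeR or DESeq2 with all libraries and groups in the fit. Psme1 (log2 0.25, limma adjusted p = 0.158) was called without KO_Af 12 (adjusted p = 0.0308), with the compared groups fitted alone (0.0422) and with array weights (0.00974). The median over all 48 was log2 0.06, beside 0.01 over all tested genes. At an unadjusted p under 0.05 limma had 5 members higher, including Psmb8, Psmb9 and Psmb10, and 3 lower. These were 8 of 48 members, beside 2797 of all 16126 tested genes in either direction, a like share. Those lower were Psme3 (log2 -0.23), Psmd11 (-0.18) and Psmd5 (-0.18). The median of the 14 constitutive 20S genes was log2 0.10 and that of the 17 cap genes 0.01. Of the 48 members 16 were higher in every KO_PBS library than in every WT_PBS library and 5 lower, beside 17.4% and 15.7% of all genes. Leukocyte markers also differed under PBS, summing to 1768 to 1927 CPM in KO_PBS and 1209 to 1448 CPM in WT_PBS, with 4 of 10 called higher. Their median log2 difference was 0.54, of a size with those of the inducible subunits. Natural killer cell markers summed to 48.9 to 58.5 CPM in KO_PBS and 18.2 to 32.1 CPM in WT_PBS, and T cell markers to 74.3 to 95.7 CPM in KO_PBS and 33.9 to 65.6 CPM in WT_PBS, with 2 of 5 and 0 of 6 called higher. B cell markers summed to 184 to 199 CPM in KO_PBS and 35.2 to 126 CPM in WT_PBS (0 of 4 called), and neutrophil markers to 193 to 331 CPM in KO_PBS and 88.5 to 132 CPM in WT_PBS (1 of 5 called higher). Plasma cell markers leaned lower, with overlap, at 72.1 to 159 CPM in KO_PBS and 141 to 473 CPM in WT_PBS (0 of 4 called). Macrophage markers (428 to 459 and 415 to 502 CPM, 0 of 6 called) and eosinophil markers (10.9 to 25.5 and 7.45 to 11.5 CPM, 0 of 4 called) overlapped between KO_PBS and WT_PBS. Per 100 CPM of leukocyte markers, the 3 inducible genes overlapped between KO_PBS and WT_PBS, as for Psmb8 with 3.79 to 4.40 and 3.48 to 4.67. Heat shock genes were lower in KO_PBS: they summed to 2625 to 3000 CPM in KO_PBS and 6896 to 9805 CPM in WT_PBS, and 11 of 12 fell. The part of these differences in the result was not tested.

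**Figure D5:**
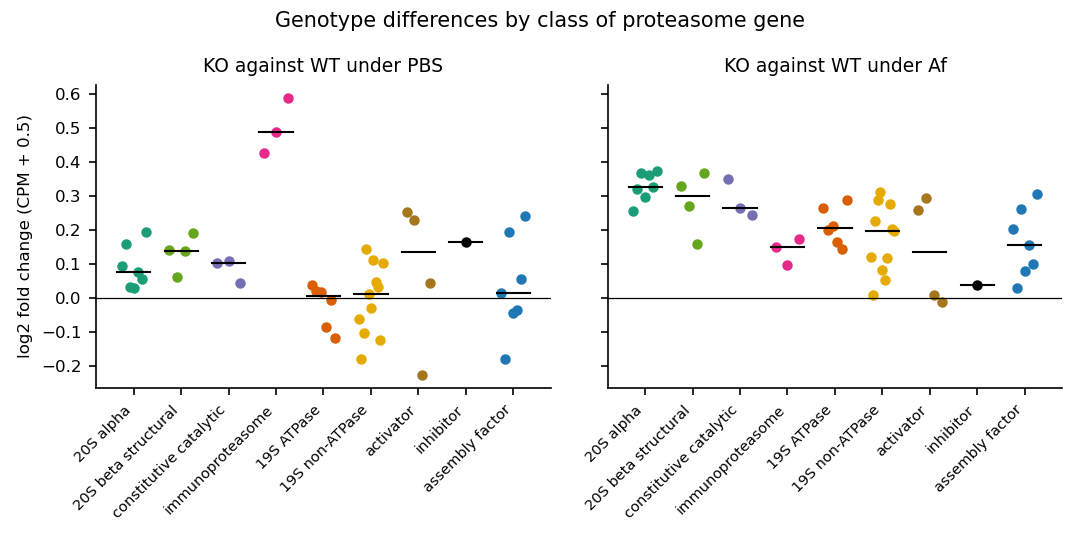
Log2 fold change of CPM + 0.5, KO against WT (y axis), of the proteasome genes by class (x axis; Psme2b and Psmc3ip not drawn), under PBS (left) and under Af (right), with the class median as a line. Under PBS the immunoproteasome genes lie at 0.43 to 0.59 while the constitutive 20S genes lie at 0.03 to 0.19 and the cap genes centre on 0.01, and under Af the immunoproteasome genes lie at 0.10 to 0.17.

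Under Af no member was called between genotypes by limma, edgeR or DESeq2, where limma called 0.0868% of all tested genes, 0.0372% higher and 0.0496% lower. Of all 16126 tested genes edgeR called 13 and DESeq2 187. With libraries weighted by their quality (limma's array weights), 17 of 48 members were called higher in KO_Af. The share of all genes with these weights is not given here, so that count cannot be set against it. The 3 inducible genes were at log2 0.10 (Psmb8), 0.17 (Psmb9) and 0.15 (Psmb10), with overlapping libraries. The rest of the members leaned upward in KO_Af: 47 of 48 differences were positive. By limma 25 had an unadjusted p under 0.05, beside 1807 of all 16126 tested genes in either direction. In all, 20 were higher in every KO_Af library than in every WT_Af library, beside 7.66% of all genes. None was lower in every KO_Af library than in every WT_Af library, beside 6.10% of all genes. Without KO_Af 12 the median of the constitutive 20S genes was log2 0.13, against 0.32 with it, that of the cap genes was 0.14, against 0.20, and that of all members was 0.12, against 0.21. Averaged over both exposures, limma called Psmb10 alone (log2 0.29 ± 0.07 SE, adjusted p = 0.0495), or 1 of 48, where 2.16% of all genes were called, 1.04% higher and 1.12% lower. The count ranged from 0 with a pseudocount of 0.1 to 20 with array weights, again without the share of all genes beside it. Without WT_Af 18 Psmb8 was called in place of Psmb10 (adjusted p = 0.046 for Psmb8 and 0.0802 for Psmb10).

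Whether the response to Af differed between genotypes was tested by the interaction, which called 0 of 48 members, beside 0.00620% of all genes. No member was called by edgeR or DESeq2 either, where edgeR called 1 and DESeq2 362 of all 16126 tested genes. At an unadjusted p under 0.05 limma had 5 of 48 members, beside 1750 of all 16126 tested genes in either direction, a like share. Of these members 4 had a larger change in KO, namely Psmc4 (log2 0.25), Psmc6 (0.41), Psmd12 (0.33) and Psmd7 (0.33). The other had a smaller one, Psmb8 (log2 -0.39 ± 0.14 SE, limma adjusted p = 0.315). All 3 inducible genes had a negative interaction (log2 -0.41 for Psmb9 and -0.28 for Psmb10), while 41 of 48 members had a positive one. Without KO_Af 12 the median interaction of the constitutive 20S genes was log2 0.02, against 0.19 with it, and that of the inducible genes was -0.45, against -0.39 with it.

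Genes that work with the proteasome were read from lists, whose counts stand beside the backgrounds above. Of 11 measured partners outside the Psm names, 6 rose after Af in KO and 7 in WT, and none fell, with medians of log2 0.45 in KO and 0.27 in WT. Uchl5, a deubiquitinase of the cap, measured 27.1, 27.5 and 26.8 CPM in KO_Af and 14.3, 14.4 and 14.5 CPM in KO_PBS, with 27.0, 27.4 and 25.8 CPM in WT_Af and 14.7, 14.7 and 14.5 CPM in WT_PBS. Its replicates were very close, and the log2 change was 0.89 in KO and 0.84 in WT. Pomp, the maturation factor of the core, rose by log2 0.83 in KO and 0.59 in WT, Txnl1, a cap-bound thioredoxin, by 0.88 in KO and 0.53 in WT, and Usp14, the other cap deubiquitinase, by 0.65 in KO and 0.39 in WT. Between genotypes under PBS none of these 4 was called, and Zfand2a, an arsenite-inducible partner, fell (log2 -0.43, limma adjusted p = 0.0154).

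Of 9 genes for regulators of proteasome transcription, 1 rose and 2 fell after Af in each genotype. Nfe2l1, which encodes NRF1, the activator of proteasome genes when proteasome activity is short, fell to 257, 276 and 269.9 CPM in KO_Af, against 351, 349 and 343 CPM in KO_PBS (log2 -0.38, limma adjusted p = 0.00111). In WT it fell to 273, 285 and 265 CPM under Af, against 343, 373 and 385 CPM under PBS (log2 -0.42, limma adjusted p = 0.000691). Af and PBS libraries did not overlap in either genotype. Its relative Nfe2l3 fell by 0.68 on the log2 scale in KO and by 0.46 in WT. That WT call was lost without WT_Af 18 (limma adjusted p = 0.0577), WT_Af 19 (0.0855) or WT_PBS 16 (0.0597), and with no level filter (0.055). The small Maf partner Maff rose by log2 2.08 in KO and 0.85 in WT. Nfe2l2 (NRF2) was called in neither genotype after Af, at log2 0.15 in KO and -0.12 in WT. Under PBS Maff (log2 -0.73) and Nfe2l2 (log2 -0.36) fell in KO relative to WT.

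Of 15 genes of the interferon gamma axis, 6 rose and 0 fell in KO, and 9 rose and 1 fell in WT. The T cell chemoattractants Cxcl9 and Cxcl10 rose by log2 3.63 and 3.17 in KO and by 2.62 and 3.13 in WT, from low levels. Cxcl10 measured 7.12, 18.2 and 14.5 CPM in KO_Af and 1.49, 0.929 and 0.527 CPM in KO_PBS, with 8.78, 12.3 and 12.8 CPM in WT_Af and 0.579, 0.564 and 1.56 CPM in WT_PBS. The feedback inhibitor Socs1 rose by log2 2.10 in KO and 2.29 in WT, and the receptor chain Ifngr2 by 0.64 in KO and 0.84 in WT. Irf8, a transcription factor of myeloid cells, rose by log2 0.82 in WT and was at log2 0.23 in KO (limma adjusted p = 0.110), where it was called without KO_Af 12 (log2 0.34, limma adjusted p = 0.0144). The difference between the genotypes was not called for any gene of the list. No gene of the list was called between genotypes under PBS. Ifng itself stayed under the level rule.

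Of 11 class I loading genes 6 rose in KO and 8 in WT, with medians of log2 0.44 in KO and 0.45 in WT. Tap1, which lies between Psmb9 and Psmb8, measured 69.7, 109 and 100.1 CPM in KO_Af and 61.8, 63.6 and 67.4 CPM in KO_PBS, with 89.4, 77.0 and 88.4 CPM in WT_Af and 40.7, 46.8 and 46.7 CPM in WT_PBS. It rose by log2 0.50 in KO and 0.92 in WT, and its difference between KO_PBS and WT_PBS was close to those of the inducible subunits in size but not called (log2 0.52, limma adjusted p = 0.0697). B2m and H2-K1, the light and a heavy chain of class I, rose by log2 0.59 and 0.44 in KO and by 0.58 and 0.57 in WT, and the chaperones Calr, Pdia3 and Canx by 0.98, 0.89 and 0.49 in KO and by 0.58, 0.56 and 0.25 in WT. The Canx call in WT was lost without WT_Af 19 (limma adjusted p = 0.0872), WT_Af 20 (0.074), WT_PBS 16 (0.0732) or WT_PBS 17 (0.0821). With no level filter (0.0548) or with libraries rescaled (0.073) it was lost too. Of 17 genes of ubiquitin supply and shuttling, 6 rose and 2 fell in each genotype. Rps27a, which encodes ubiquitin joined to a ribosomal protein, rose by log2 1.12 in KO and 0.93 in WT. The shuttle Rad23b and the segregase cofactor Faf1 rose by log2 0.49 each in KO and by 0.47 and 0.39 in WT, and the shuttle Ubqln2 fell by 0.49 on the log2 scale in KO and by 0.31 in WT. The Ubqln2 call in WT was lost without WT_Af 20 (limma adjusted p = 0.0523), WT_PBS 15 (0.0559) or WT_PBS 16 (0.0516).

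Of 12 heat shock genes, which encode chaperones of damaged proteins, 7 rose and 0 fell after Af in KO, and 2 rose and 2 fell in WT. Hsph1 and Hsp90aa1 rose by log2 1.02 and 1.03 in KO and stood at -0.35 and -0.06 in WT, where neither was called. The mitochondrial chaperones Hspd1 and Hspe1 rose in each genotype, by log2 0.76 and 1.49 in KO and 0.34 and 0.62 in WT. Both WT calls were lost without WT_Af 19 (limma adjusted p = 0.152 for Hspd1 and 0.102 for Hspe1), WT_PBS 15 (0.110 and 0.101) or WT_PBS 16 (0.132 and 0.0925), that of Hspd1 also without KO_PBS 9 (0.05005), and that of Hspe1 also without WT_Af 18 (0.0581). Hspb1 and Dnajb1 fell in WT (log2 -1.16 and -0.88) and were not called in KO (0.52 and 0.22).

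The 6 entries under the level rule were Psma8, Psmb11 and 4 pseudogenes. Psma8, an alpha subunit of male germ cells, had 1.14, 1.10 and 0.925 CPM in KO_Af and 0.320, 0.520 and 0.659 CPM in KO_PBS, with 0.528, 0.590 and 0.674 CPM in WT_Af and 0.538, 0.434 and 0.142 CPM in WT_PBS, and just missed the rule with 2 libraries at 1 CPM. Psmb11, the catalytic subunit of the thymus proteasome, was at 7.34 CPM in WT_Af 18 and between 0 and 0.0655 CPM in the other 11 libraries. The pseudogenes reached at most 0.472 CPM. In WT_Af 18 the thymus genes Rag1 (109 CPM), Dntt (57.5 CPM) and Prss16 (40.1 CPM) were also high, against at most 0.754, 0.735 and 1.47 CPM in the other 11 libraries. Without WT_Af 18 the inducible subunits rose in WT by a median of log2 0.56, against 0.64 with it, and all 3 were still called.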

How the data were processed

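Poly-A RNA was sequenced from 12 mouse lung libraries, extracted with RNEasy kits and built with TruSeq mRNA kits, per the labels' protocols. The submitters' processing notes name cutadapt 1.18, STAR 2.7.6a, RSEM 1.3.0 and the builds GRCm38 and GRCh38, with no roles. The deposited signal is gene-level CPM that the authors scaled by TMM, the trimmed mean of M values, so library sums differ. Every value was a whole multiple of 1 read (100% within 0.01), so whole reads were recovered: 20708884 to 30229446 per library, with 3 reads worth up to 0.144 CPM. Replicates differed by more than sampling noise.

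The 16126 genes that reached 1 CPM in 3 or more libraries were tested on log2(CPM + 0.5) by limma's trend method (limma 3.58.1, R 4.3.3), with 4 groups and Benjamini-Hochberg adjustment over all of them. The threshold was an adjusted p of 0.05. This scale understates the change of low genes. edgeR 4.0.16 and DESeq2 1.42.0 on the recovered reads were alternatives. Ratios were tested by exact permutation within strata (400 arrangements, adjusted over 3 ratios). The limma fit was tested on simulated data. Gene positions and lengths are from GENCODE M21 on GRCm38, and promoters from RefSeq on GRCm38.p6. No protein sequence was used here.

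Any measured member could be named. Those given in full were the catalytic subunits, the activators, the extremes of each other class and any called between genotypes, and in each list the genes with the smallest p in either genotype, up to 4 each. Zfand2a and the thymus genes were named after their values were seen. Some genes that the rule names are not reported here. The members and lists were chosen with earlier results of these data known.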

Additional observations from a re-analysis of the deposited data

Results flagged for a closer look

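Psmd12 and Psmd7, both of the lid of the 19S cap, stood on opposite sides between genotypes under the 2 exposures. Psmd12 was lower in every KO_PBS library than in every WT_PBS library (log2 -0.10) and higher in every KO_Af library than in every WT_Af library (log2 0.23). Psmd7 did likewise, with log2 -0.12 under PBS and 0.20 under Af. The interaction was called for neither (limma adjusted p = 0.221 for Psmd12 and 0.234 for Psmd7). Psmb11, which was in no comparison, stood at 7.34 CPM in library WT_Af 18 and at 0 in 8 of the other 11 libraries.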

How the results depend on the processing

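After Af the count of members that rose was 40 to 45 in KO and 39 to 46 in WT when single libraries were left out, and none fell; with array weights 1 fell in KO. Between genotypes under PBS, members higher in KO numbered 6 with array weights, 4 when the compared groups were fitted alone and 4 without WT_Af 18 and KO_Af 12 (an alternative chosen after seeing the data), and 0 to 4 when single libraries were left out; members lower numbered 2 with array weights, 2 without that pair and 0 to 1 without single libraries. Under Af, 17 were higher with array weights and 0 to 1 without single libraries. Averaged over exposures, the count of 1 became 0 with a pseudocount of 0.1, no level filter, libraries rescaled to 1 median, TMM undone, no trend, or without WT_PBS 17 and KO_Af 12. It became 2 with 1 CPM required in all 12 libraries, 2 without WT_Af 18 and KO_Af 12, 5 with DESeq2, 20 with array weights and 0 to 6 without single libraries. The interaction called 7 positive and 1 negative with array weights, and 0 without single libraries. Averaged over exposures, DESeq2 called 1147 of all 16126 tested genes, against 349 by limma. For the other alternatives the share of all genes is not given here, so their counts of members cannot be set against it. The cause of these moves was not tested.

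The log2 ratio of Psmb8 to Psmb5, Af minus PBS, ranged from -0.0353 to 0.0639 without single libraries and was negative without KO_Af 13 (-0.00140), WT_Af 18 (-0.0133) or WT_PBS 15 (-0.0353). That of Psmb9 to Psmb6 ranged from -0.37 to -0.23 and passed the threshold before adjustment without WT_PBS 15 (exact permutation p = 0.02), and that of Psmb10 to Psmb7 ranged from -0.42 to -0.31 (exact permutation p = 0.01 to 0.025, also before adjustment). Whether the Psmb10 to Psmb7 difference passes after adjustment over 3 ratios when a library is left out is not given here. Among single genes after Af in WT, Hsp90aa1 turned positive with array weights (0.0221), without WT_Af 20 (0.0422) and without WT_PBS 17, with or without KO_Af 12 (0.0547; range over single libraries left out -0.133 to 0.0547), and Psmf1 turned negative when libraries were rescaled (-0.0265) and without WT_PBS 17, with or without KO_Af 12 (-0.00773; range over single libraries left out -0.00773 to 0.0607). Over all values of named genes under the alternatives, 2947 kept their direction and side of the threshold, 84 lost the call, 54 gained one and 7 turned. No paired analysis was made because the labels used here do not say whether libraries were matched across groups. With 3 libraries a group, a difference between genotypes that was not called is not shown to be absent.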
